A study of Mus musculus with 32 samples.

Results

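The transcript changes that epididymal and brown fat have in common after auranofin were measured in 16 of the 32 RNA sequencing libraries of a mouse series. These are the 8 libraries of epididymal white fat (eWAT, a visceral depot beside the epididymis) and the 8 of brown fat (BAT, labelled intrascapular). In each depot 4 libraries came from auranofin-treated mice and 4 from vehicle-treated mice. All mice were wild-type C57/Bl6j, had eaten a diet with 60% fat for 12 weeks, and were then dosed 3 times a week for 4 weeks, with auranofin at 1 mg per kg of body weight or with vehicle. The libraries were made from total RNA of whole tissue with a kit that does not keep strand. The labels give neither the age of the mice nor whether libraries came from separate mice or an eWAT and a BAT library from the same one, so p-values measure the spread between libraries, which may be technical.

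Auranofin is a gold compound used against rheumatoid arthritis, and its best known target is the selenoenzyme thioredoxin reductase. In obesity, white fat takes up macrophages, which gather around dying adipocytes, and its fibroblasts lay down collagen around enlarged fat cells. Fibrillar collagens (types I, III and V) form the fibres, type VI forms a beaded network around adipocytes, and lysyl oxidases cross-link the fibres. Brown fat burns fatty acids in mitochondria uncoupled by Ucp1 and holds less matrix and fewer macrophages.

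The unit is FPKM, reads scaled by gene length and by sequencing depth, and each change is a difference of group means of log2(FPKM + 1), auranofin minus vehicle. The pseudocount of 1 makes changes of genes at low levels look smaller than they are. The common effect is 1 auranofin term fitted to both depots at once with limma, with the depot as a block. The 12096 genes with a mean of at least 0.5 FPKM in each depot, of 54532 in the table, were tested. A gene was called at a Benjamini-Hochberg adjusted p under 0.05.

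The libraries held 13606756 to 19205640 reads in genes. Adipoq, the adipocyte hormone adiponectin, was between 498 and 2944 FPKM in the auranofin libraries and between 496 and 1571 FPKM in the vehicle libraries. Ucp1 was at 3250, 2279, 4145 and 2842 FPKM in BAT with auranofin and at 2931, 2656, 2740 and 1697 FPKM in BAT with vehicle, and at most 0.441 FPKM in any eWAT library. On the first principal component of depot-centred values, which held 36.9% of the variance, eWAT vehicle libraries 2 and 1 had the highest scores (59.5 and 31.5), apart from the other vehicle libraries of eWAT (-8.16 and -8.82). BAT vehicle library 4 had 17.2, against -1.41 to 4.58 in the other vehicle libraries of BAT. The auranofin libraries lay between -27.6 and 4.64. Skeletal muscle transcripts were present in BAT auranofin libraries 2 and 4 (mean log2(FPKM + 1) of 28 markers 5.77 and 4.66) and in BAT vehicle libraries 4, 3 and 1 (3.97, 2.97 and 1.58), against 0.539 to 0.687 elsewhere. Albumin reached 286 and 113 FPKM in eWAT auranofin libraries 2 and 3. With the muscle level as a covariate Col6a3 had -0.99 (adjusted p = 0.026), and the part of the liver transcripts was not tested.

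In both depots matrix and macrophage gene lists had medians below 0, and the mature adipocyte and nuclear respiratory chain lists had medians above 0. A single gene passed the threshold in the common fit, 0.00827% of those tested, and it was lower. This was Col6a3, which encodes the alpha 3 chain of type VI collagen (ENSMUSG00000048126, chromosome 1, 90765923 to 90843971, mm10). In eWAT it had 13.7, 7.43, 12.8 and 14.1 FPKM with auranofin, against 24.8, 24.6, 21.5 and 21.3 FPKM with vehicle. In BAT it had 3.79, 7.92, 4.47 and 4.42 FPKM with auranofin, against 13.6, 10.7, 9.68 and 10.5 FPKM with vehicle. The groups did not overlap in either depot, and auranofin library 2 was the lowest in eWAT and the highest of the auranofin libraries in BAT. Col6a3 fell by 0.97 in the common fit (SE 0.14, limma adjusted p = 0.0316), with -0.92 (SE 0.20) in eWAT and -1.012 (SE 0.19) in BAT. Without eWAT vehicle libraries 1 and 2 the change was -0.94 and no gene was called (adjusted p = 0.143). Leaving out BAT vehicle library 4 as well gave -0.94 and 0.295. Leaving out each library in turn gave changes of -1.05 to -0.88, and the call was lost in 10 of 16 cases. The number called was 136 without BAT auranofin library 2, 68 without eWAT vehicle library 4 and 12 without eWAT auranofin library 3.

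At an unadjusted p under 0.05, 1234 genes were lower (10.2% of those tested) and 1174 higher (9.71%). Genes that reached an unadjusted p under 0.05 in each depot alone in the same direction numbered 213 lower (1.76%) and 69 higher (0.57%). Genes whose auranofin and vehicle libraries did not overlap in both depots numbered 61 lower (0.504%) and 10 higher (0.0827%). Across the genes tested the common change was below 0 in 47.7% and above 0 in 52.3%, with a median of 0.012.

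Across the 12096 genes the changes of eWAT and of BAT had a Pearson correlation of 0.38 and a Spearman correlation of 0.40, and 64.7% had the same sign. Genes are not independent replicates, so these describe the libraries and carry no p. The choice of eWAT and BAT was made with earlier results of these data known, so their agreement is no independent evidence of a common response. The depots share no library. Of the 1375 genes with an unadjusted p under 0.05 in eWAT, 1083 (78.8%) had the same sign in BAT, and of the 1384 such genes in BAT, 1103 (79.7%) had the same sign in eWAT. Without eWAT vehicle libraries 1 and 2 the Pearson correlation was 0.31, and without BAT vehicle library 4 as well it was 0.27.

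**Figure D1:**
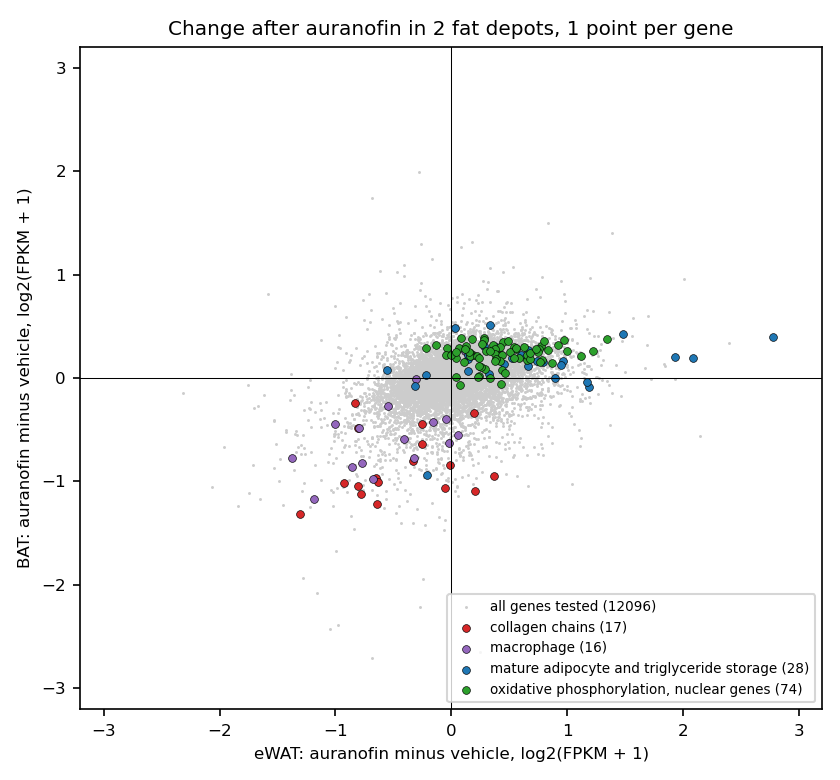
Each point is a gene, with its change in eWAT on the x axis and in BAT on the y axis, both as auranofin minus vehicle of mean log2(FPKM + 1). All 17 collagen chains tested lie below 0 in BAT and 14 of them below 0 in eWAT, while the 74 nuclear respiratory chain genes lie mostly above 0 on both axes.

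Collagen chains were the list with the lowest common median among the 28 functional lists described. Of 24 chains in the list, 17 passed the level filter and the other 7 were under it in at least 1 depot. All 17 had a common change below 0, with a median of -0.56, and 13 of 17 were lower at an unadjusted p under 0.05 (76.5%, against 10.2% of all genes tested). In each depot alone 8 of 17 were lower at that level (47.1%, against 1.76% of all genes). In 5 of 17 the groups did not overlap in either depot, against 0.504% of all genes lower in this way. The medians were -0.63 in eWAT and -0.96 in BAT. Without the 3 vehicle libraries that stood apart the median was -0.73, all 17 were below 0 and 16 were lower at an unadjusted p under 0.05, against 6.6% of all genes. The list and the comparison were chosen with earlier results of these data known, so its direction is no independent evidence. Fewer cells of a type and less RNA per cell cannot be told apart in whole tissue.

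Col3a1, the fibrillar chain of type III collagen, had 63.3, 35.2, 85.4 and 73.9 FPKM in eWAT with auranofin, against 288, 148, 112 and 113 FPKM with vehicle. BAT libraries had 15.9, 35.1, 20.0 and 21.4 FPKM with auranofin, against 78.4, 54.9, 40.4 and 59.2 FPKM with vehicle. No auranofin library reached the lowest vehicle library of its depot, and the common change was -1.31 (SE 0.23, limma adjusted p = 0.0665). Col1a2, of type I collagen, averaged 34.4 ± 8.63 FPKM in eWAT with auranofin and 59.4 ± 12.7 FPKM with vehicle (SD, n = 4 each). In BAT it averaged 7.02 ± 2.53 FPKM with auranofin and 16.2 ± 4.22 FPKM with vehicle. Its common change was -0.95 (SE 0.17, limma adjusted p = 0.0665), again with no overlap in either depot. Col5a2, a type V chain that regulates fibre diameter, averaged 14.3 ± 4.26 FPKM in eWAT with auranofin and 25.0 ± 4.02 FPKM with vehicle, and 2.95 ± 1.35 FPKM in BAT with auranofin and 6.91 ± 1.30 FPKM with vehicle (common change -0.92, SE 0.16).

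Col1a1, Col6a1, Col6a2 and Col8a1 had changes of -0.64, -0.65, -0.63 and -0.81 in eWAT, and -1.22, -0.96, -1.004 and -0.48 in BAT. The basement membrane chains Col4a1 and Col4a2 were nearer 0, at -0.25 and -0.25 in eWAT and -0.64 and -0.45 in BAT. Col18a1, Col5a3 and Col16a1 were above 0 in eWAT (0.37, 0.20 and 0.20) and below 0 in BAT (-0.94, -1.09 and -0.33). None of the 17 chains passed the test of the difference between depots after adjustment. At an unadjusted p under 0.05, 4 of 17 differed between depots, against 5.61% of all genes tested.

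**Figure D2:**
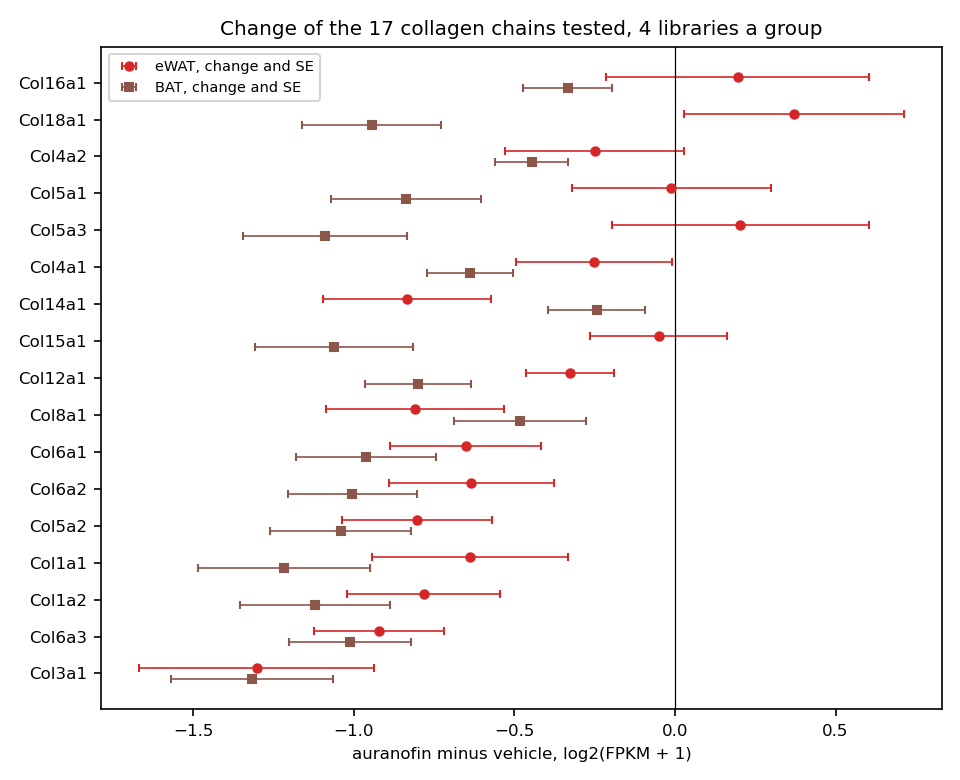
The x axis gives the change of each collagen chain tested, auranofin minus vehicle of mean log2(FPKM + 1), with circles for eWAT, squares for BAT and bars for 1 SE (4 libraries a group). Col3a1, Col6a3 and Col1a2 lie below -0.7 in both depots, while Col18a1 lies above 0 in eWAT and below -0.9 in BAT.

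Of the 4 collagen chains with the smallest p, only Col6a3 was called in the common fit, and Col5a2 is named only. The proximal promoters of the 3 chains other than Col5a2 are shown. They are the RefSeq windows of 250 bases before to 50 bases after the gene start on GRCm38.p6, on the gene's strand, and capitals mark each CCAAT (or its reverse complement ATTGG), the box bound by NF-Y. Col6a3 is at chr1:90843922-90844221 on the minus strand, Col3a1 at chr1:45311288-45311587 on the plus strand and Col1a2 at chr6:4505368-4505667 on the plus strand.
Col6a3: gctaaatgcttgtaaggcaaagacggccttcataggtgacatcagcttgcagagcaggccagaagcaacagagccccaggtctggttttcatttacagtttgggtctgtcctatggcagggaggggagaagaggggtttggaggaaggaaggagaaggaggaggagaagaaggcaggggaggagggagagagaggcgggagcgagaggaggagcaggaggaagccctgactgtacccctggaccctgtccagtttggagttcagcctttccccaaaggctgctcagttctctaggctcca
Col3a1: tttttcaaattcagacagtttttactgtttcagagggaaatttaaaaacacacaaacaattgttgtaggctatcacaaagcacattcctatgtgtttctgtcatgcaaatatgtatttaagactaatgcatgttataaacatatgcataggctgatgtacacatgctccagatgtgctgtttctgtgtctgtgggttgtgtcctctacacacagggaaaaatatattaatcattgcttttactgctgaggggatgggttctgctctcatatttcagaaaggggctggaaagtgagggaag
Col1a2: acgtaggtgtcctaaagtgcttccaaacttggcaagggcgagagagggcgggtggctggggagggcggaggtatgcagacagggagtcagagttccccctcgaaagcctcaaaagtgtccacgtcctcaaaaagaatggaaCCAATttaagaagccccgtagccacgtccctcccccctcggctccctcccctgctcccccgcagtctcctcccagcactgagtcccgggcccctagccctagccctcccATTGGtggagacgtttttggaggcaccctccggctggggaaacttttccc
Col1a2 held 2 matches, and neither Col6a3 nor Col3a1 held one in this window. Among the promoters of collagen chains tested, 6 of 15 held the box (40%), against 37.4% of all 32851 promoters in the table. The cell division genes described further on held it in 13 of 17 promoters (76.5%). A second motif searched on both strands, TTTGAA (or TTCAAA), the cell cycle homology region, was in 3 of 15 collagen promoters and 5 of 17 cell division promoters, against 11.6% of the promoters of genes tested and 17.9% of all promoters. A match is a string of letters and not a shown binding site.

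Genes of collagen processing had a common median of -0.25, with 15 of 20 tested below 0 and 9 lower at an unadjusted p under 0.05 (45%, against 10.2% of all genes). Lox, the lysyl oxidase that starts cross-linking, had 19.7, 9.76, 13.4 and 15.8 FPKM in eWAT with auranofin, against 23.9, 37.1, 25.8 and 19.0 FPKM with vehicle. In brown fat the gene had 6.69, 12.6, 7.56 and 6.02 FPKM with auranofin, against 15.5, 15.5, 14.8 and 19.2 FPKM with vehicle. The groups overlapped by 1 library in eWAT and not in BAT (common change -0.88, SE 0.16, limma adjusted p = 0.0665). Loxl2, another member of the family, averaged 4.31 ± 1.04 FPKM in eWAT with auranofin and 10.2 ± 4.45 FPKM with vehicle, and 1.71 ± 0.506 FPKM in BAT with auranofin and 2.91 ± 0.225 FPKM with vehicle (common change -0.77). Pcolce, which enhances removal of the procollagen end peptide, had a common change of -0.77, with -0.46 in eWAT and -1.07 in BAT.

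Matrix glycoproteins and proteoglycans had a common median of -0.37, with 29 of 33 tested below 0. Of these 33, 18 were lower at an unadjusted p under 0.05 (54.5%, against 10.2% of all genes). Timp1, an inhibitor of matrix metalloproteases and a marker of fibrosis, had 7.17, 2.31, 8.48 and 7.76 FPKM in eWAT with auranofin, against 61.4, 8.72, 10.3 and 10.5 FPKM with vehicle. The BAT values were 0.769, 1.22, 0.357 and 0.805 FPKM with auranofin, against 6.67, 4.98, 6.84 and 4.72 FPKM with vehicle. No library overlapped in either depot, and eWAT vehicle library 1 was several times any other. The common change was -1.61 (SE 0.33, limma adjusted p = 0.08), and -1.45 (adjusted p = 0.143) without eWAT vehicle libraries 1 and 2. Fbn1, the microfibril protein fibrillin-1, averaged 8.96 ± 2.45 FPKM in eWAT with auranofin and 19.8 ± 5.89 FPKM with vehicle, and 1.83 ± 0.762 FPKM in BAT with auranofin and 3.63 ± 0.670 FPKM with vehicle (common change -0.89, SE 0.16, adjusted p = 0.0665). Tnc, the injury-induced glycoprotein tenascin C, had -0.38 in eWAT and -1.19 in BAT.

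Matrix proteases had a common median of -0.43, with 13 of 18 below 0. Of these 18, 12 were lower at an unadjusted p under 0.05 (66.7%, against 10.2% of all genes). Mmp14, a membrane-bound collagenase, averaged 10.9 ± 1.29 FPKM in eWAT with auranofin and 18.3 ± 3.36 FPKM with vehicle, and 1.63 ± 0.649 FPKM in BAT with auranofin and 2.88 ± 0.630 FPKM with vehicle (common change -0.63, SE 0.12). Adam8, a protease of activated myeloid cells, had a common change of -1.24 (SE 0.27) and Mmp19 one of -0.74 (SE 0.15). Sh3pxd2b, the scaffold Tks4 of the cell protrusions that digest matrix, averaged 5.39 ± 0.763 FPKM in eWAT with auranofin and 8.98 ± 1.84 FPKM with vehicle, and 1.66 ± 0.604 FPKM in BAT with auranofin and 2.91 ± 0.202 FPKM with vehicle. Its groups did not overlap in either depot (common change -0.61, SE 0.11, limma adjusted p = 0.0665). Without the 3 vehicle libraries that stood apart, the medians were -0.26 for collagen processing, -0.23 for glycoproteins and -0.32 for proteases.

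**Figure D3:**
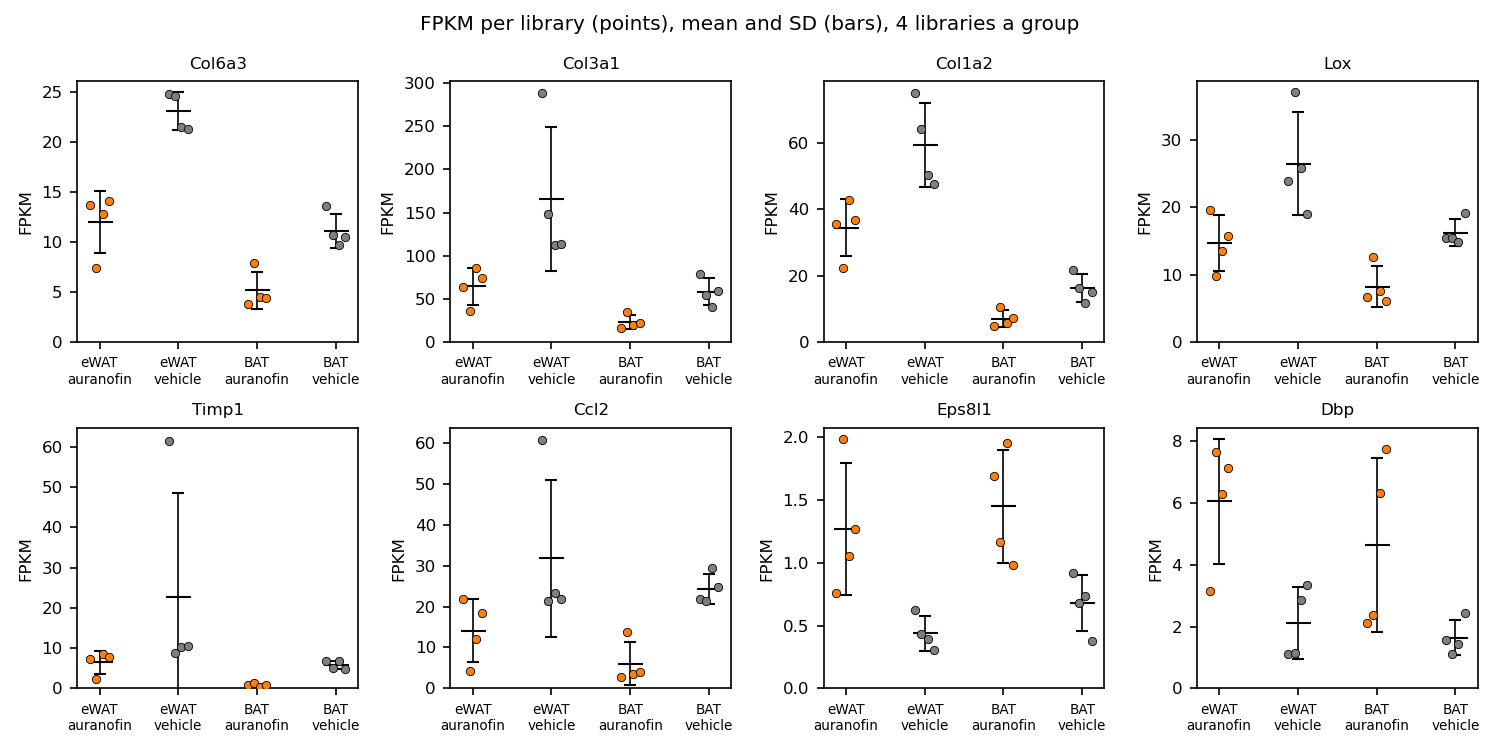
FPKM of 8 genes in every library (points), with mean and SD of 4 libraries as bars, in eWAT and BAT, auranofin to the left of vehicle. In Col6a3, Col3a1, Col1a2 and Timp1 the auranofin points lie below every vehicle point of their depot, and in Eps8l1 they lie above every one.

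Of 20 macrophage markers 16 were tested, and 14 were below 0 in eWAT and 15 in BAT. The common change was below 0 in 15, with a median of -0.52, and 10 were lower at an unadjusted p under 0.05 (62.5%, against 10.2% of all genes). The summed level of the list ran from 1172 to 2555 FPKM in eWAT with auranofin and from 2016 to 4432 FPKM with vehicle. In BAT it ran from 121 to 246 FPKM with auranofin and from 217 to 414 FPKM with vehicle. Adgre1, which encodes the macrophage surface protein F4/80, had 40.2, 21.7, 39.1 and 65.2 FPKM in eWAT with auranofin, against 106, 83.1, 54.0 and 52.8 FPKM with vehicle. In BAT it had 1.11, 2.98, 1.61 and 1.46 FPKM with auranofin, against 3.68, 6.30, 2.17 and 4.43 FPKM with vehicle. The groups overlapped in both depots, and the common change was -0.86 (SE 0.22, limma adjusted p = 0.103). Cd68, of macrophage lysosomes, had -1.18 in eWAT and -1.17 in BAT, and Itgax, the CD11c of fat macrophages in obesity, had -1.38 and -0.78.

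In eWAT the 2 vehicle libraries that stood apart were also the highest for macrophage markers, with mean log2 levels of 5.49 and 4.98, against 4.65 and 4.59 in vehicle libraries 3 and 4 and 4.09 to 4.76 with auranofin. Without those 2 libraries the common median of the list was -0.39 with 15 of 16 below 0, and without BAT vehicle library 4 as well it was -0.38. Cd163, a marker of resident macrophages, was the member above 0 (common change 0.19).

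Genes of lipid-associated macrophages and lysosomes had 30 of 33 members below 0, with a common median of -0.39, -0.67 in eWAT and -0.19 in BAT. Of these 33, 22 were lower at an unadjusted p under 0.05 (66.7%, against 10.2% of all genes). Without eWAT vehicle libraries 1 and 2 the common median was -0.22 and 10 were lower at that level (30.3%, against 7.19% of all genes). Lgals3, which encodes galectin-3, averaged 273 ± 133 FPKM in eWAT with auranofin and 493 ± 207 FPKM with vehicle, and 16.4 ± 9.09 FPKM in BAT with auranofin and 50.1 ± 8.21 FPKM with vehicle (common change -1.33, SE 0.32, limma adjusted p = 0.0935). Ctss, the lysosomal protease cathepsin S, had -1.18 in eWAT and -1.17 in BAT. Its vehicle libraries 1 and 2 of eWAT had 1029 and 1109 FPKM, against 339 and 384 FPKM in vehicle libraries 3 and 4, which lay among the auranofin libraries.

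Chemokines and inflammatory cytokines had 26 of 30 members below 0, with a common median of -0.38, -0.23 in eWAT and -0.44 in BAT. Ccl2, the chemokine that draws monocytes into fat, had 21.8, 4.35, 12.0 and 18.3 FPKM in eWAT with auranofin, against 60.7, 21.4, 23.3 and 21.95 FPKM with vehicle. BAT libraries had 2.77, 13.9, 3.55 and 3.92 FPKM with auranofin, against 21.8, 21.4, 29.4 and 24.9 FPKM with vehicle. The BAT groups did not overlap, and in eWAT auranofin library 1 lay just above the lowest vehicle library (common change -1.62, SE 0.34, limma adjusted p = 0.08). Its neighbour on chromosome 11, Ccl7, had -0.98 in eWAT and -2.38 in BAT. In Ccl2, Ccl7 and the list as a whole BAT auranofin library 2, the library richest in muscle transcripts, was the highest of the auranofin libraries. The complement list had 14 of 20 below 0 (median -0.29), with the receptor C5ar1 at -0.88 and C3ar1 at -1.011. Antigen presentation had a common median of -0.04, with 0.18 in eWAT and -0.30 in BAT. Interferon-induced genes had 22 of 26 below 0 (median -0.15). Of these 26, 6 were lower at an unadjusted p under 0.05 (23.1%, against 10.2% of all genes).

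Preadipocyte and fibroblast markers had 15 of 18 below 0 and a common median of -0.46 (-0.28 without the 3 libraries), with -0.25 in eWAT and -0.49 in BAT. In eWAT their mean log2 level ran from 4.67 to 4.97 with auranofin and from 4.98 to 5.24 with vehicle. The summed level there went the other way, from 3256 to 5304 FPKM with auranofin and from 2603 to 3965 FPKM with vehicle. Lum, the proteoglycan lumican, had -1.48 in eWAT and -0.78 in BAT, and Pdgfra, the receptor that marks fat progenitors, -0.53 and -0.36. Actin and tubulin cytoskeleton genes had 31 of 39 below 0 (median -0.33), among them Lcp1, the actin bundler of leukocytes, at -1.19 (SE 0.26).

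All 19 cell division genes tested, of 42 in the list, were below 0, with a median of -0.32. Of these 19, 13 were lower at an unadjusted p under 0.05 (68.4%, against 10.2% of all genes). The other 23 were under the level filter in at least 1 depot. Rrm2, a subunit of ribonucleotide reductase, averaged 1.69 ± 0.550 FPKM in eWAT with auranofin and 3.43 ± 1.51 FPKM with vehicle, and 0.320 ± 0.119 FPKM in BAT with auranofin and 0.741 ± 0.0893 FPKM with vehicle. Its groups did not overlap in either depot (common change -0.55, SE 0.13, limma adjusted p = 0.094). In BAT, however, Rrm2 passed the filter of 0.5 FPKM only through its vehicle libraries. Its values there are near the floor, so the missing overlap in BAT is weak support. The list median was -0.18 without the 3 vehicle libraries that stood apart, with 18 of 19 below 0 and 6 lower at an unadjusted p under 0.05 (31.6%, against 6.6% of all genes).

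Immediate-early genes, the transcription factors switched on within minutes of a stimulus, had 21 of 25 below 0 and a common median of -0.49. The medians were -0.07 in eWAT and -0.65 in BAT, a difference that was not tested. Fosl1, of the AP-1 family, had 0.861, 1.76, 2.19 and 1.80 FPKM in eWAT with auranofin, against 3.02, 1.30, 2.92 and 3.26 FPKM with vehicle. The BAT values were 2.20, 3.40, 2.78 and 2.74 FPKM with auranofin, against 9.35, 5.74, 12.1 and 9.74 FPKM with vehicle. One vehicle library lay among the auranofin libraries in eWAT and none did in BAT (common change -0.92, SE 0.20, limma adjusted p = 0.08). Fos had -0.90 in eWAT and -1.10 in BAT, and Egr2 -0.93 and -1.05, while Dusp1 and Nr4a1 were near 0 in both. The list had 24 of 25 below 0 and a median of -0.57 when the 3 vehicle libraries that stood apart were left out.

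Mast cell and neutrophil genes had a common median of -0.66 over 9 genes tested, with -1.08 in eWAT and -0.15 in BAT. Cpa3, the mast cell carboxypeptidase, averaged 7.12 ± 3.202 FPKM in eWAT with auranofin and 88.0 ± 132 FPKM with vehicle, an SD larger than its mean. Without eWAT vehicle libraries 1 and 2 the list median was -0.29.

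In the other direction no gene was called, and the genes with the smallest p were of mixed function. Eps8l1, an actin regulator of the Eps8 family, had 0.758, 1.99, 1.06 and 1.27 FPKM in eWAT with auranofin, against 0.628, 0.430, 0.392 and 0.302 FPKM with vehicle. In BAT it had 1.70, 1.16, 1.95 and 0.984 FPKM with auranofin, against 0.919, 0.680, 0.739 and 0.377 FPKM with vehicle. The groups did not overlap in either depot (common change 0.59, SE 0.11, limma adjusted p = 0.0778). In eWAT, however, Eps8l1 passed the filter of 0.5 FPKM only through its auranofin libraries. Its values are near the floor, so the missing overlap in eWAT is weak support. Cox20, an assembly factor of cytochrome oxidase, had a common change of 0.53 and Nat9 one of 0.39. The glutathione transferases Gsto2 and Gstt2 had 0.51 and 0.80. Ccdc159 had 0.39.

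Among circadian clock genes, Dbp, a factor driven directly by the clock, had 3.15, 7.64, 6.28 and 7.14 FPKM in eWAT with auranofin, against 1.10, 1.16, 2.86 and 3.35 FPKM with vehicle. BAT libraries had 2.11, 2.37, 6.32 and 7.74 FPKM with auranofin, against 1.58, 1.12, 1.44 and 2.42 FPKM with vehicle. All but 1 auranofin library in eWAT, and 2 of 4 in BAT, lay above every vehicle library (common change 1.09, SE 0.24, limma adjusted p = 0.0809). Tef, of the same family, had 0.73 in eWAT and 0.55 in BAT, and Nr1d1, the repressor REV-ERB alpha, 1.04 and 0.48. Arntl, which encodes the activator BMAL1, had -0.50 and -0.33. The list had 7 of 17 genes higher at an unadjusted p under 0.05 (41.2%, against 9.71% of all genes) and 1 lower, with a median of 0.21. Without the 3 vehicle libraries that stood apart the median was -0.0045, with 8 of 17 above 0, and 6 were higher at an unadjusted p under 0.05 (35.3%, against 3.07% of all genes). The time of day of tissue collection is not given.

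Genes of mature adipocytes and triglyceride storage had 24 of 28 above 0 with a common median of 0.40, with 0.57 in eWAT and 0.16 in BAT. Cfd, the adipocyte protease adipsin, had 1227, 5309, 1188 and 865 FPKM in eWAT with auranofin, against 95.9, 106, 495 and 584 FPKM with vehicle. In brown fat the gene had 223, 379, 176 and 618 FPKM with auranofin, against 297, 269, 168 and 227 FPKM with vehicle. The eWAT groups did not overlap and the BAT groups did (common change 1.59, SE 0.53, limma adjusted p = 0.148). Slc2a4, the insulin-responsive glucose transporter GLUT4, had 46.7, 63.8, 31.1 and 31.7 FPKM in eWAT with auranofin, against 7.28, 7.09, 25.7 and 28.6 FPKM with vehicle. In BAT it averaged 151 ± 34.5 FPKM with auranofin and 110.2 ± 15.04 FPKM with vehicle (common change 0.96, SE 0.29, adjusted p = 0.131).

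Vehicle libraries 1 and 2 of eWAT were the lowest of the 16 for the adipocyte list, with mean log2 levels of 6.496 and 6.81, against 7.54 and 7.70 in vehicle libraries 3 and 4 and 7.51 to 8.06 with auranofin. Without them the common median of the list was 0.15 and 3 of 28 members were higher at an unadjusted p under 0.05 (10.7%, against 4.22% of all genes). With all libraries 11 of 28 had been higher at that level (39.3%, against 9.71% of all genes). Without those 2 vehicle libraries the Cfd change was 0.87 and that of Adipoq 0.18.

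All 74 nuclear genes of oxidative phosphorylation had a common change above 0, with a median of 0.31, 0.38 in eWAT and 0.24 in BAT. No gene among them was called, and 22 were higher at an unadjusted p under 0.05 (29.7%, against 9.71% of all genes). Ndufs3, a core subunit of complex I, had 60.5, 43.4, 32.5 and 35.6 FPKM in eWAT with auranofin, against 22.9, 25.1, 37.1 and 35.5 FPKM with vehicle. The BAT values were 254, 162, 204 and 228 FPKM with auranofin, against 191, 164, 178 and 128 FPKM with vehicle. The groups overlapped in both depots (common change 0.42, SE 0.15, limma adjusted p = 0.169). Without the 3 vehicle libraries that stood apart the list median was 0.15, with 71 of 74 above 0. Then 1 of 74 was higher at an unadjusted p under 0.05 (1.35%, against 3.07% of all genes), so the share was no longer above that of all genes. Of the 13 transcripts encoded by mitochondrial DNA, 10 were below 0 in eWAT and 13 above 0 in BAT, with a common median of 0.08. Vehicle library 2 of eWAT was the highest of that depot for this list (mean log2 level 9.34), and without eWAT vehicle libraries 1 and 2 the common change was above 0 in 12 of 13, with a median of 0.25.

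Genes of the citrate cycle and branched-chain amino acid breakdown had 30 of 32 above 0 (median 0.22), and mitochondrial fatty acid oxidation 21 of 25 (median 0.18). Without the 3 vehicle libraries that stood apart these medians were 0.08 and 0.02. Cpt1a, the carnitine transferase that gates entry of fatty acids into mitochondria, lay on the other side. It averaged 26.7 ± 2.17 FPKM in eWAT with auranofin and 37.9 ± 5.84 FPKM with vehicle, and 5.77 ± 0.614 FPKM in BAT with auranofin and 7.49 ± 0.859 FPKM with vehicle (common change -0.40, SE 0.09, limma adjusted p = 0.08). Of 22 thermogenesis genes 15 were tested, and Ucp1 was among those under the filter. The 15 had 13 above 0 (median 0.24), with 1 higher at an unadjusted p under 0.05 (6.67%, against 9.71% of all genes). Their median was 0.13 without BAT vehicle library 4 and 0.08 without all 3 vehicle libraries that stood apart.

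**Figure D4:**
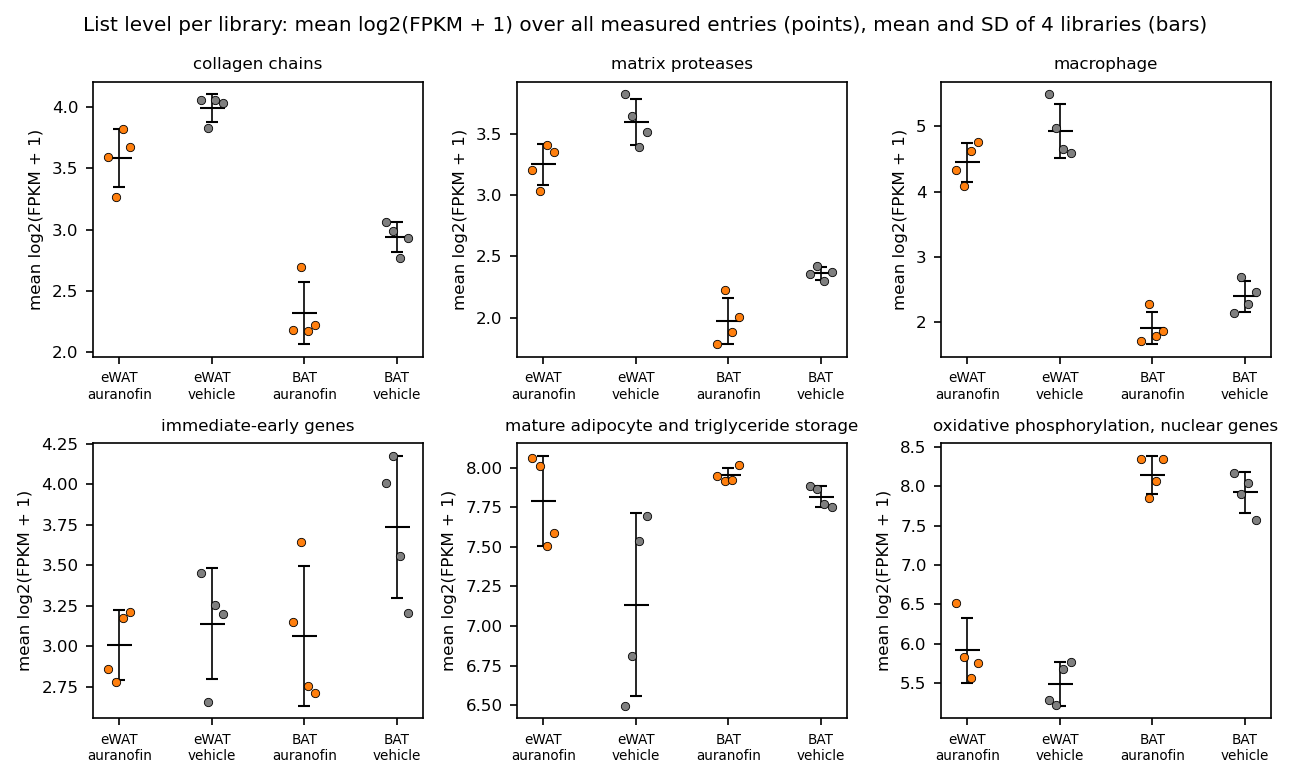
Mean log2(FPKM + 1) of 6 gene lists in each library (points), with mean and SD of 4 libraries as bars, in eWAT and BAT, auranofin to the left of vehicle. Collagen levels in BAT are 2.17 to 2.70 with auranofin and 2.77 to 3.07 with vehicle, macrophage levels overlap between groups, and the 2 lowest points for adipocyte genes are eWAT vehicle libraries.

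Across the genes tested the common change had a Spearman correlation of -0.277 with the length of the gene model, and its median was 0.24 for 284 genes up to 1000 bases and -0.05 for 3325 genes over 6000 bases. Its part in the results was not tested beyond removing the trend. With that trend removed the collagen median was -0.52, the macrophage median -0.58, the adipocyte median 0.33 and the respiratory chain median 0.22, and Col6a3 had -0.88 (adjusted p = 0.0599). On a TPM scale the median of all genes moved to -0.12, and relative to it these medians were -0.77, -0.57, 0.37 and 0.28 in the same order.

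Txnrd1, the cytosolic thioredoxin reductase, averaged 10.4 ± 0.714 FPKM in eWAT with auranofin and 12.7 ± 2.33 FPKM with vehicle, and 13.4 ± 0.857 FPKM in BAT with auranofin and 14.8 ± 1.38 FPKM with vehicle (common change -0.19, SE 0.08, limma adjusted p = 0.223). The thioredoxin and selenoprotein list had 24 of 37 above 0 (median 0.10, or -0.05 on the TPM scale, 0.07 above all genes there), with Gpx4, the lipid peroxide reductase, at 1.03 in eWAT and 0.21 in BAT. Targets of the antioxidant regulator NRF2 had 22 of 34 above 0 (median 0.11, or -0.03 on the TPM scale, 0.09 above all genes there). At an unadjusted p under 0.05, 8 were higher (23.5%, against 9.71% of all genes) and 5 lower (14.7%, against 10.2%). Without the 3 vehicle libraries that stood apart, 3 were higher (8.82%, against 3.07%) and 5 lower (14.7%, against 6.6%). Hmox1, the haem oxygenase, averaged 37.2 ± 7.95 FPKM in eWAT with auranofin and 73.3 ± 41.2 FPKM with vehicle, and 12.2 ± 4.29 FPKM in BAT with auranofin and 36.3 ± 18.0 FPKM with vehicle, without overlap in either depot (common change -1.15, SE 0.26, adjusted p = 0.083). Gsta4, which conjugates products of lipid peroxidation, had 1.17 in eWAT and 0.47 in BAT. Nqo1 had 0.24 and 0.01. Unfolded protein genes had a median of -0.16 with the chaperone Hspa5 at -0.43, and heat shock and metallothionein genes one of -0.17.

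Lep, which encodes the satiety hormone leptin, had 1146, 294, 605 and 612 FPKM in eWAT with auranofin, against 445, 661, 886 and 865 FPKM with vehicle. In BAT it had 40.9, 114, 30.1 and 37.7 FPKM with auranofin, against 93.2, 159, 67.5 and 75.4 FPKM with vehicle. The groups overlapped in both depots, most in eWAT (common change -0.58, SE 0.31, limma adjusted p = 0.299). Adipoq had 0.89 in eWAT and 0.00 in BAT (common change 0.45, SE 0.23, adjusted p = 0.281). Mt1, a metallothionein that binds metals, had -0.08 and -0.30 (common change -0.19, SE 0.23, adjusted p = 0.648).

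The 2 other genes among the 8 lower ones with the smallest p were Rell1, a member of the RELT family, and Ear2, an eosinophil-type ribonuclease. Rell1 averaged 5.5 ± 1.0 FPKM in eWAT with auranofin and 7.95 ± 1.19 FPKM with vehicle, and 2.37 ± 0.865 FPKM in BAT with auranofin and 5.22 ± 0.415 FPKM with vehicle (common change -0.69, SE 0.12, limma adjusted p = 0.0665). Ear2 had a common change of -0.87 (SE 0.16), but it has near-identical copies in the genome among which reads cannot be parted with certainty, so its value is uncertain.

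Each depot alone gave few calls. In eWAT limma called 0 genes at an adjusted p under 0.05, 1375 had an unadjusted p under 0.05, and voom on rebuilt whole reads also called 0. In BAT 4 genes were called, all lower (0.0331% of those tested), and they are named here after their values were seen. Timp1 fell by 1.94 in BAT (SE 0.17, limma adjusted p = 0.00954). Csf2rb, a cytokine receptor subunit with a close paralogue, fell by 0.87 (adjusted p = 0.0155), Iigp1, an interferon-induced GTPase, by 0.84 (adjusted p = 0.0155) and Pvr, the poliovirus receptor homologue, by 0.75 (adjusted p = 0.0487). Without BAT auranofin library 2 the count was 246, and without BAT vehicle library 4 it was 1. In eWAT these 4 had -1.28, -0.13, -0.21 and 0.15.

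The test of the difference between eWAT and BAT called 0 genes with limma and 0 with voom, and 679 genes had an unadjusted p under 0.05 (5.61% of those tested). The smallest adjusted p was that of Pvr (0.14), which averaged 5.73 ± 0.598 FPKM in eWAT with auranofin and 5.05 ± 0.478 FPKM with vehicle, and 3.90 ± 0.516 FPKM in BAT with auranofin and 7.19 ± 0.287 FPKM with vehicle. Csf1, the macrophage growth factor, had -0.06 in eWAT and -1.47 in BAT (difference 1.41, adjusted p = 0.782). Asf1b, Tnfrsf23 and Rnf19b had differences of -0.92, -0.64 and 0.74. With few libraries a missed threshold does not show that the depots responded alike.

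Inguinal white fat (iWAT, a subcutaneous depot, 4 auranofin and 4 vehicle libraries) was used to ask whether the common change differed there. Of 11823 genes over the filter in all 3 depots, limma called 0 and voom called 0 for the mean of eWAT and BAT minus iWAT, with 3472 at an unadjusted p under 0.05 (29.4%), 1465 below 0 (12.4%) and 2007 above 0 (17%). The smallest adjusted p was 0.0595, shared by several genes including Col6a3, which had 20.7 ± 3.30 FPKM in iWAT with auranofin and 20.5 ± 4.32 FPKM with vehicle. Its common change in eWAT and BAT less that of iWAT was -0.99 (SE 0.24). Without iWAT auranofin library 2 the same test called 3458 genes, 2035 above 0 and 1423 below 0, and the count was 549, 405 and 306 without BAT auranofin library 2, eWAT vehicle library 4 and eWAT auranofin library 3.

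The collagen median was -0.10 in iWAT, with 10 of 17 chains below 0. Macrophage markers had 0.04 there and matrix proteases 0.18. Some lists had the same direction in iWAT as in eWAT and BAT. Actin and tubulin cytoskeleton genes had a median of -0.25 in iWAT, with 31 of 39 below 0. Genes of lipid-associated macrophages and lysosomes had -0.23 there, with 22 of 33 below 0, and circadian clock genes had 0.17. The 74 nuclear respiratory chain genes were all below 0 in iWAT (median -0.72), opposite to their common direction in eWAT and BAT. For that difference 68 of 74 had an unadjusted p under 0.05, against 29.4% of all genes. None passed after adjustment. Across 12096 genes the common change and the iWAT change had a Pearson correlation of -0.15. The choice of eWAT and BAT was made with earlier results known, so this contrast with iWAT is no independent evidence either.

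**Figure D5:**
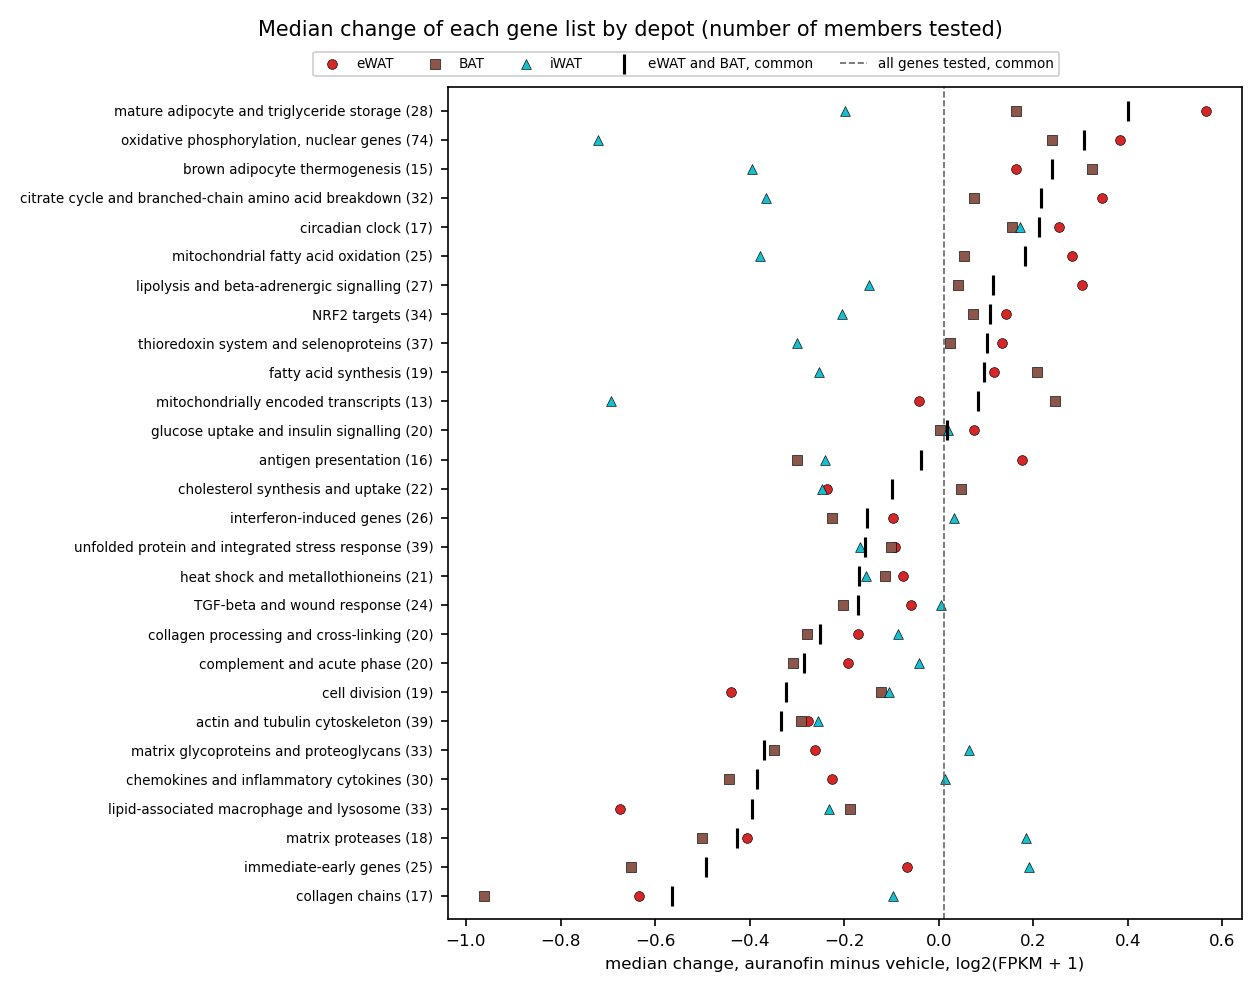
Median change over the tested members of 28 gene lists, auranofin minus vehicle of mean log2(FPKM + 1), in eWAT (circles), BAT (squares) and iWAT (triangles), with the common effect of eWAT and BAT as a black bar and that of all genes as a dashed line. Collagen chains have -0.63 in eWAT, -0.96 in BAT and -0.10 in iWAT. Nuclear respiratory chain genes are above 0 in eWAT and BAT and at -0.72 in iWAT.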

How the data were processed

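Total RNA was sequenced from whole fat, with libraries made by a kit that is not stranded per the labels' protocols, so overlapping antisense genes cannot be told apart. The deposited table holds FPKM values for each library made by the authors. Per the submitters' processing notes the build was mm10 and the tools included featureCounts 1.5.0-p3 and STAR 2.6.1d, besides DESeq2 1.20.0 and CASAVA; their roles are not stated.

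FPKM values were taken as log2(FPKM + 1) and fitted with limma 3.58.1 (R 4.3.3, mean-variance trend), with Benjamini-Hochberg adjustment over all genes tested. Low values were whole multiples of 1 read in 100% of cases, within 0.1 read, and voom on these rebuilt reads called 8 genes in the common fit. Counting sets the precision of low genes.

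Genes named are 6 in every case (Lep, Adipoq, Ucp1, Adgre1, Txnrd1 and Mt1), 8 per direction with the smallest p, 3 per functional list, and for the differences 5 per direction between eWAT and BAT and 3 against iWAT. Others, such as further collagen chains and cell type markers, were chosen after their values were seen. The members, lists and tests were chosen with earlier results of these data known. Lists are described by counts and medians beside all genes. Tested on simulated data, the common fit recovered 31.8%, 78.1% and 100% of genes changed by 1.5, 2 and 4 times, with 2 false calls of 135. The simulation drew each gene independently, without deviations that many genes of a library share. Such deviations are present in the real libraries, so these rates need not hold for them. Same-numbered libraries did not deviate together, and the numbers were not used as pairs. Alternatives covered the pseudocount, filter, scaling, weights and left-out libraries. Liver was not analysed here, and some genes that the naming rule picks are not reported here.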

Additional observations from a re-analysis of the deposited data

Results flagged for a closer look

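Among 308 groups of 4 libraries examined for 1 library far from the other 3, 18 had one, and chance gives about 1 in 20. Of mean log2 levels of gene lists, eWAT auranofin library 2 stood apart for collagen processing (3.37) and lipid-associated macrophage genes (5.21), and eWAT auranofin library 1 for thioredoxin genes (5.08) and unfolded protein genes (4.14). BAT auranofin library 2 stood apart for collagen chains (2.70) and chemokines (1.76). Among vehicle libraries, eWAT library 2 stood apart for mitochondrially encoded transcripts (9.34) and collagen chains (3.82), eWAT library 3 for NRF2 targets (4.07) and BAT library 1 for fatty acid oxidation (6.96).

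Of single genes, Col6a3 stood apart in eWAT auranofin library 2 (7.43 FPKM), Gstt2 in BAT auranofin library 2 (6.404 FPKM) and Lsm7 in eWAT auranofin library 1 (16.4 FPKM) and BAT vehicle library 3 (12.2 FPKM). Rell1 did so in BAT vehicle library 2 (4.60 FPKM), Perm1 in eWAT vehicle library 1 (1.59 FPKM) and BAT vehicle library 1 (18.5 FPKM), and Pcyt1a in eWAT vehicle library 2 (10.1 FPKM).

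In 5 genes every auranofin library lay on one side of the mean of the vehicle libraries in eWAT and on the other side of it in BAT. Single vehicle libraries were not compared for this. Their eWAT minus BAT differences were -0.96 for Slc6a6, -0.98 for Perm1, -1.05 for Efr3b, 1.16 for C1qtnf1 and 1.199 for Cdc42ep5. The test of the difference across all genes called none of them.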

How the results depend on the processing

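The common fit called 1 gene. It called 0 with no filter on level, with the replicate block, with the gene-length trend removed, without eWAT vehicle libraries 1 and 2, and without BAT vehicle library 4 as well. It called 10 at a mean FPKM of 2 or more, 8 with voom, 9 among protein-coding genes, 20 with same-numbered libraries as 1 animal, 50 with weights per library, 96 with weights per depot, 100 on the TPM scale (99 lower, 1 higher) and 131 at an adjusted p under 0.10. The last, and the setting without 3 libraries, were chosen after seeing the data. Leaving out each library gave 0 to 136. BAT alone called 0 with the replicate block and 0 to 246 on leaving out a library. The eWAT minus BAT difference called 1 with no filter and 0 to 4 on leaving out a library, and that from iWAT 1 and 0 to 3458. The replicate block moved no other count of calls.

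The collagen median was -0.83 at a pseudocount of 0.1, -0.89 on the TPM scale and -0.86 with voom. On the TPM scale medians were -0.43 for collagen processing, -0.62 for proteases, -0.44 for complement, -0.32 for interferon-induced genes, -0.56 for cell division, -0.047 for thioredoxin genes and -0.32 for unfolded protein genes. Cell division had -0.53 with voom, and circadian genes -0.0045 without the 3 libraries. The common change of mt-Nd4 turned to -0.0090 on the TPM scale and -0.11 with quantile normalisation, that of Perm1 to -0.19 at a pseudocount of 0.1 and -0.23 on the TPM scale, and that of C1qtnf1 to 0.14 with voom. Leaving out each library gave -0.054 to 0.132 for Perm1, below 0 in 4 cases, and -0.140 to 0.043 for C1qtnf1, above 0 in 5. The cause was not tested.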
